A study of Arabidopsis thaliana with 22 samples.

Results

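The 4 genes described here are the plastid NDH genes that lie outside the small single copy region of the *Arabidopsis thaliana* plastid genome. They were chosen by name and position, not by any measured value: ndhC, ndhK and ndhJ, which sit side by side in the large single copy region, and ndhB, which is present once in each inverted repeat and was summed over its 2 copies. Earlier results of these data were known when these genes were chosen. They are 4 of the 112 plastid genes that were measured, and the small single copy region holds a further 7 NDH genes.

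The genes encode subunits of the chloroplast NADH dehydrogenase-like (NDH) complex of the thylakoid membrane. This complex passes electrons from ferredoxin to plastoquinone, and it takes part in cyclic electron flow around photosystem I and in chlororespiration. ndhC and ndhB encode subunits that sit in the membrane, whereas ndhK and ndhJ encode subunits of the peripheral part on the stromal side. ndhC, ndhK and ndhJ are transcribed together in that order, and ndhB lies downstream of the ribosomal protein genes rps12 and rps7.

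The assay was ptATAC-seq, in which the transposase Tn5 cuts accessible plastid DNA and adds sequencing adapters. The number of counted ends along the genome records where the enzyme cut. The nucleoid, the complex of plastid DNA with its proteins, was set against plastid DNA labelled naked. Both fractions came from wild type rosette leaves of ecotype Col0, from plants grown on soil for 14 days at 22 °C under white light of 100 µmol per square metre and second with 16 h days and 8 h nights. The labels give 1 protocol for both fractions (5 g of leaves, chloroplasts enriched by centrifugation and fixed for 4 h in 4% formaldehyde, libraries made with a Nextera kit), and how the naked DNA was made is not given in the sources used here.

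Each fraction had 11 numbered libraries, but replicates 9 and 10 of the nucleoid were identical at all 154477 positions and were counted as 1, which left 10 nucleoid and 11 naked libraries. Nothing in the labels says that replicates came from separate plants, so the p-values measure only the spread between these libraries, which may be technical. The libraries held 202725 to 1813905 counts in the nucleoid fraction and 105763 to 1195649 in the naked fraction, and 8 nucleoid and 5 naked libraries had over 600000. Naked replicates 9, 10 and 11 stood apart: unevenness, taken as the SD of log2(signal + 1) across the 200 bp windows of a library, was 1.36 to 1.63 in these 3, against 0.44 to 0.96 in the nucleoid libraries and 0.53 to 1.01 in naked replicates 1 to 8. The results for the members, their flanks and spacers, and for the lists and neighbours, are therefore also given without these 3 libraries. Values of windows are for all libraries unless said otherwise, and the number of window calls that remained without the 3 is given.

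The signal of a gene was its mean count per position divided by the mean over all positions of that library and given in percent, so that 100% is the genome mean. It is a share: more ends in one region lower the percentages of all others. Differences between fractions were tested with limma on log2(signal + 1), nucleoid minus naked, and p-values were adjusted by the Benjamini-Hochberg method over all genes. Of all 112 genes, 38 passed an adjusted p of 0.05 (33.9%), 11 of them higher (9.82%) and 27 lower (24.1%) in the nucleoid.

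Of the 4 NDH genes, ndhB was higher in the nucleoid and ndhJ was lower, and ndhC and ndhK did not pass the test. The share of 2 in 4 stands beside 33.9% of all genes. The median log2 fold change was 0.089 over the 4 genes and 0.10 over all 112 genes. The differences that passed were small, with means that were 1.13 times as high for ndhB and 0.897 times as high for ndhJ in the nucleoid, and in none of the 4 genes were the ranges of the fractions apart. Ranges that do not overlap occurred in 1 of the 112 genes (0.893%).

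ndhB (locus ArthCp068, 2224 bp), whose product is a membrane subunit, had the highest signal of the 4 in the nucleoid. Its signal there was lowest at 109%, had a median of 126% and reached 134%, against a lowest value of 86.6%, a median of 111% and a highest value of 120% in naked DNA. In 9 of the 10 nucleoid libraries it stood above the naked median, and the ranges overlapped between 109% and 120%. The means were 125% ± 6.68 in the nucleoid (SD, n = 10) and 111% ± 10.2 in naked DNA (SD, n = 11), which is 0.17 higher on the log2 scale (SE 0.055, adjusted p = 0.0198 by limma).

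The ndhB call did not hold under every way of processing. Without naked replicates 9, 10 and 11 it remained, at a log2 fold change of 0.15 (limma adjusted p = 0.0224). It was lost when log2 library depth was a covariate (0.17, limma adjusted p = 0.0669), in the libraries over 600000 counts (0.086, limma adjusted p = 0.216) and when each library was scaled to its median window in place of its mean (0.021, limma adjusted p = 0.843). That scaling lowered the log2 fold change of the median gene by 0.15, and relative to the median gene ndhB stood 0.073 higher under the mean scaling and 0.072 higher under the median scaling.

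ndhJ (locus ArthCp025, 477 bp), which encodes a peripheral subunit, went the other way. Its signal was lowest at 106%, had a median of 111% and was highest at 121% in the nucleoid, against 115%, 122% and 152% in naked DNA. All 10 nucleoid libraries lay below the naked median, and nucleoid replicate 4, at 121%, was the one library within the naked range. The means were 111% ± 4.71 in the nucleoid (SD, n = 10) and 124% ± 9.93 in naked DNA (SD, n = 11), a log2 fold change of -0.15 with an SE of 0.045 (adjusted p = 0.0141 by limma). The highest value belonged to naked replicate 9, and without naked replicates 9, 10 and 11 the log2 fold change was -0.11 (limma adjusted p = 0.0160). Relative to the median gene it was -0.25 under both scalings, and the call was lost in the libraries over 600000 counts (-0.10, limma adjusted p = 0.0681).

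ndhK (locus ArthCp026, 678 bp), which encodes a peripheral subunit of the electron-carrying arm, had almost the same mean in both fractions. Its signal was lowest at 102%, had a median of 111% and was highest at 117% in the nucleoid, against 91.2%, 116% and 127% in naked DNA. The nucleoid libraries all fell inside the naked range, which was the wider one. The log2 fold change was 0.0048 (SE 0.058, limma adjusted p = 0.951) and 0.0092 without naked replicates 9, 10 and 11, and its sign was negative under the median scaling (-0.15, limma adjusted p = 0.181).

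ndhC (locus ArthCp027, 363 bp), the first gene of the operon and a membrane subunit, was the lowest of the 4 in both fractions and the most variable. Its signal was lowest at 75.4%, had a median of 95.3% and was highest at 103% in the nucleoid, against 43.4%, 97.2% and 110% in naked DNA. The low naked values were those of replicates 9, 10 and 11, at 43.4%, 63.1% and 49.5%, whereas naked replicates 1 to 8 lay between 77.6% and 110%. The means were 93.6% ± 7.75 in the nucleoid (SD, n = 10) and 84.4% ± 23.5 in naked DNA (SD, n = 11), and the log2 fold change of 0.20 did not pass (SE 0.15, limma adjusted p = 0.227). Without those 3 libraries it was -0.038 (limma adjusted p = 0.778).

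**Figure D1:**
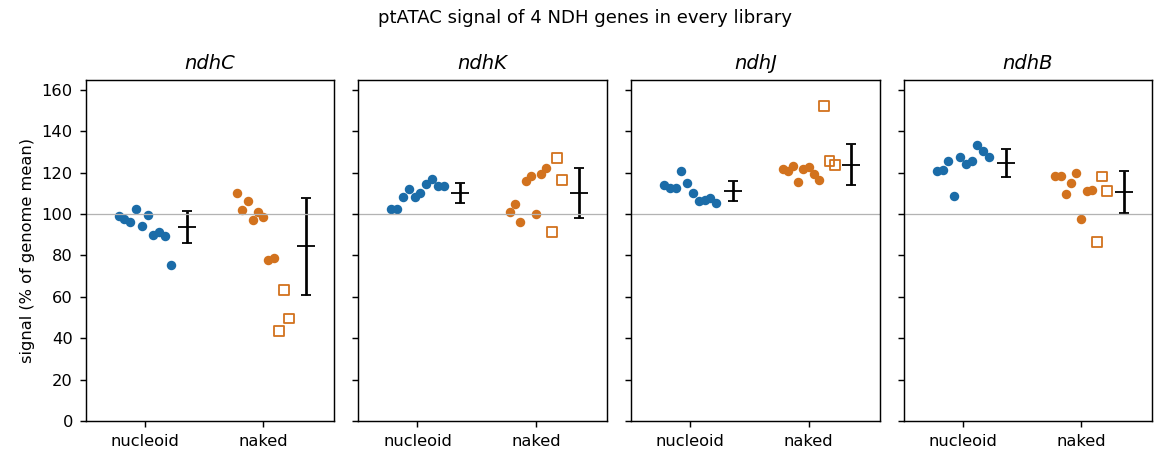
ptATAC signal of ndhC, ndhK, ndhJ and ndhB as a percent of the genome mean (vertical axis), with 1 point per library, nucleoid libraries on the left and naked libraries on the right of each panel. Open squares are naked replicates 9, 10 and 11, and the bars show mean ± SD of 10 nucleoid and 11 naked libraries; ndhB lay higher and ndhJ lower in the nucleoid with overlapping ranges, and the open squares hold the 3 lowest ndhC values.

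The plot of single libraries shows how differently the 4 genes spread. In the nucleoid the SD lay between 4.71 and 7.75 points for all 4 genes, whereas in naked DNA it ran between 9.93 points for ndhJ and 23.5 points for ndhC. Counts behind a gene ranged from 241 for ndhC in the shallowest case to 64991 for ndhB in the deepest.

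The order of the genes differed between the fractions. In the nucleoid the mean signal per position ran from ndhB through ndhJ and ndhK to ndhC, and ndhJ and ndhK did not differ beyond their spread (111% ± 4.71 and 110% ± 4.89, SD, n = 10). In naked DNA ndhJ came first, ndhB and ndhK shared the next place within their spread (111% ± 10.2 and 110% ± 12.01, SD, n = 11) and ndhC was again last. Among all 112 genes ndhB had rank 21 in the nucleoid and rank 45 in naked DNA, ndhJ had ranks 40 and 36, ndhK had ranks 43 and 46, and ndhC had ranks 67 and 76, each pair given as nucleoid and then naked.

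The exchange of ndhB and ndhJ could be read within each library, where the scaling cancels. ndhB exceeded ndhJ in 9 of 10 nucleoid libraries and in 0 of 11 naked libraries. The log2 ratio of ndhB to ndhJ was 0.16 ± 0.13 in the nucleoid (SD, n = 10) and -0.16 ± 0.23 in naked DNA (SD, n = 11). Naked replicate 9 had -0.81 and the other naked libraries -0.33 to -0.0064, so that the naked mean was -0.10 ± 0.098 without replicate 9 (SD, n = 10) and -0.095 ± 0.11 without replicates 9, 10 and 11 (SD, n = 8). This pair was singled out after its values were seen, so the ratio is a description with no test. ndhC was the lower gene against ndhJ in every library of both fractions, and against ndhK in 10 of 10 nucleoid and 9 of 11 naked libraries.

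The fall of ndhC in some libraries went with how uneven the whole library was. Over all 21 libraries, after the mean of each fraction was subtracted, log2 signal of ndhC had a Pearson r of -0.95 with the unevenness over 200 bp windows. Within the 10 nucleoid libraries r was -0.93, and within naked replicates 1 to 8 it was -0.89. The points share their genome-wide scaling and the ndhC windows themselves enter the unevenness, so these are descriptions without a p. The other 3 genes had r of 0.29 for ndhK, 0.34 for ndhJ and -0.21 for ndhB over the same 21 libraries, and the part of unevenness in the differences between fractions was not tested. Low naked values were not particular to ndhC. The lowest naked value ran from 11.0% (ndhA) to 38.5% (ndhE) in the 7 NDH genes of the small single copy region, against 43.4% for ndhC. Their r with unevenness was not computed.

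**Figure D2:**
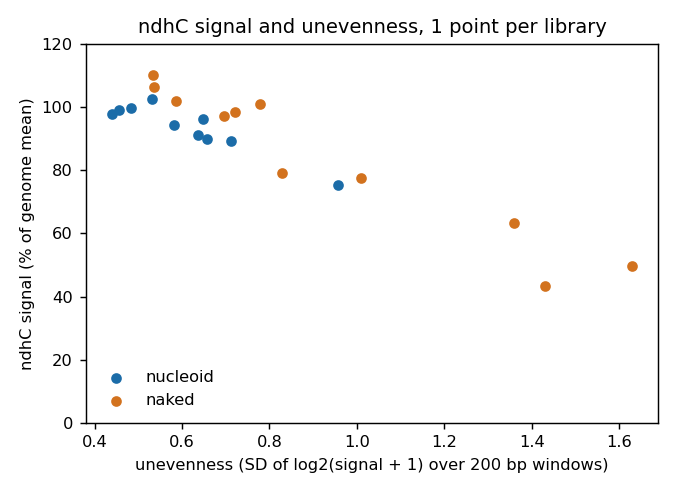
Signal of ndhC as a percent of the genome mean (vertical axis) against the unevenness of the library as defined for the 200 bp windows (horizontal axis, log2 units), with 1 point per library, 10 nucleoid and 11 naked. The naked libraries with an unevenness of 1.36 to 1.63 hold the 3 lowest values, and the nucleoid library with the highest unevenness, 0.96, has the lowest nucleoid value, 75.4%.

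The plot of ndhC against unevenness shows both fractions on 1 falling course. Among the members, log2 signal of ndhJ and ndhB had r = -0.78 over the 21 libraries after the mean of each fraction was subtracted. Naked replicate 9 had the highest ndhJ and the lowest ndhB value of its fraction (152% and 86.6%). Nucleoid replicate 4 had the same in its own (121% and 109%). The r without these libraries was not computed, so a pattern over the other libraries is not claimed. ndhK and ndhB had r = 0.57. ndhC had r of -0.097 with ndhK and -0.49 with ndhJ, its partners in the operon. Signals are shares of the same total in each library, so such correlations are in part tied by construction, and no p is given.

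The signal was uneven along the ndhC-ndhK-ndhJ operon, with the genes high and the spacers between them low in both fractions. Taken from the first base of ndhJ to the last of ndhC, the 1687 bp of the operon had 101% ± 2.69 in the nucleoid (SD, n = 10) and 101% ± 4.29 in naked DNA (SD, n = 11). The 103 bp between ndhK and ndhJ had 45.7% ± 9.31 in the nucleoid and 39.5% ± 8.87 in naked DNA. The 66 bp between ndhC and ndhK had 56.1% ± 11.7 in the nucleoid and 37.8% ± 7.44 in naked DNA, and all 10 nucleoid libraries stood above the naked median there, although the lowest library had only 15 counts in it. When naked replicates 9 to 11 were left out, the log2 difference was 0.13 for the first of these spacers and 0.44 for the second, against 0.21 and 0.56 with them. These spacers were looked at after the gene values were known and were not tested.

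Upstream of the operon the signal was lower than over any of its genes. The 835 bp between ndhC and the neighbouring gene trnV had 43.3% ± 6.63 in the nucleoid (SD, n = 10) and 34.6% ± 12.6 in naked DNA (SD, n = 11). Downstream, the 429 bp between ndhJ and trnF had 84.0% ± 9.37 in the nucleoid and 82.1% ± 11.2 in naked DNA. The spacer before the operon was thus lower than the one after it, and both lay below the genome mean in both fractions. With the 3 uneven naked libraries left out, the log2 difference was 0.076 for the first and -0.019 for the second, against 0.40 and 0.035 with them.

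Across the 2 ends of each gene, a flank of 300 bp was taken, with 250 bp outside the gene and 50 bp inside. Of the 224 flanks of all genes, 44 passed the test (19.6%), 18 of them higher (8.04%) and 26 lower (11.6%) in the nucleoid. The median log2 fold change over all 224 flanks was 0.17. The flank upstream of ndhC had 61.1% ± 6.82 in the nucleoid (SD, n = 10) and 51.9% ± 16.4 in naked DNA (SD, n = 11), and it did not pass (log2 fold change 0.30, SE 0.17, limma adjusted p = 0.146). Its log2 fold change was 0.010 without naked replicates 9, 10 and 11 (limma adjusted p = 0.939). The flank downstream of ndhJ had 103% ± 9.76 in the nucleoid and 97.0% ± 10.3 in naked DNA and did not pass either (0.091, limma adjusted p = 0.290, and 0.046 without the 3 naked libraries), with a negative sign under the median scaling.

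Both flanks of ndhB were higher in the nucleoid. Upstream, on the side of rps7, the signal was lowest at 80.0%, had a median of 92.5% and was highest at 98.6% in the nucleoid, against 61.5%, 74.0% and 94.5% in naked DNA, and all 10 nucleoid libraries lay above the naked median (log2 fold change 0.25, SE 0.076, limma adjusted p = 0.0341). Downstream, on the side of trnL, it was lowest at 100.3%, had a median of 121% and was highest at 143% in the nucleoid, against 76.0%, 104% and 116% in naked DNA (log2 fold change 0.30, SE 0.078, limma adjusted p = 0.0225). The ranges overlapped on both sides. Without naked replicates 9, 10 and 11 neither flank passed, with limma adjusted p = 0.119 upstream and 0.0653 downstream, and both calls were also lost with depth as a covariate, in the libraries over 600000 counts and under the median scaling. With 1 library left out, the downstream call held in all 21 fits. The upstream call was lost without nucleoid replicate 1, 2, 5, 6 or 8 or without naked replicate 7, 10 or 11, with adjusted p up to 0.0639 by limma and log2 fold changes of 0.22 or above.

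Within ndhB the difference between fractions was spread over much of its length. By distance from its start, the first 600 bp had 114% ± 8.58 in the nucleoid (SD, n = 10) and 93.1% ± 15.7 in naked DNA (SD, n = 11), and all 10 nucleoid libraries were above the naked median. The stretch from 600 to 1200 bp was the highest of the gene in both fractions, at 147% ± 19.8 in the nucleoid and 141% ± 21.1 in naked DNA. Farther along, 1200 to 1700 bp had 121% ± 3.99 in the nucleoid and 105% ± 11.96 in naked DNA, and 1700 to 2224 bp had 114% ± 6.96 in the nucleoid and 102% ± 12.2 in naked DNA. With all libraries, the fractions lay closest together in the stretch from 600 to 1200 bp. Without naked replicates 9, 10 and 11 that stretch did not stand out from the last one. When naked replicates 9, 10 and 11 were left out, the log2 differences of the 4 stretches, in order from the start, were 0.21, 0.11, 0.17 and 0.11, against 0.31, 0.066, 0.21 and 0.17 with them. These stretches were set after the profile was seen and have no test.

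**Figure D3:**
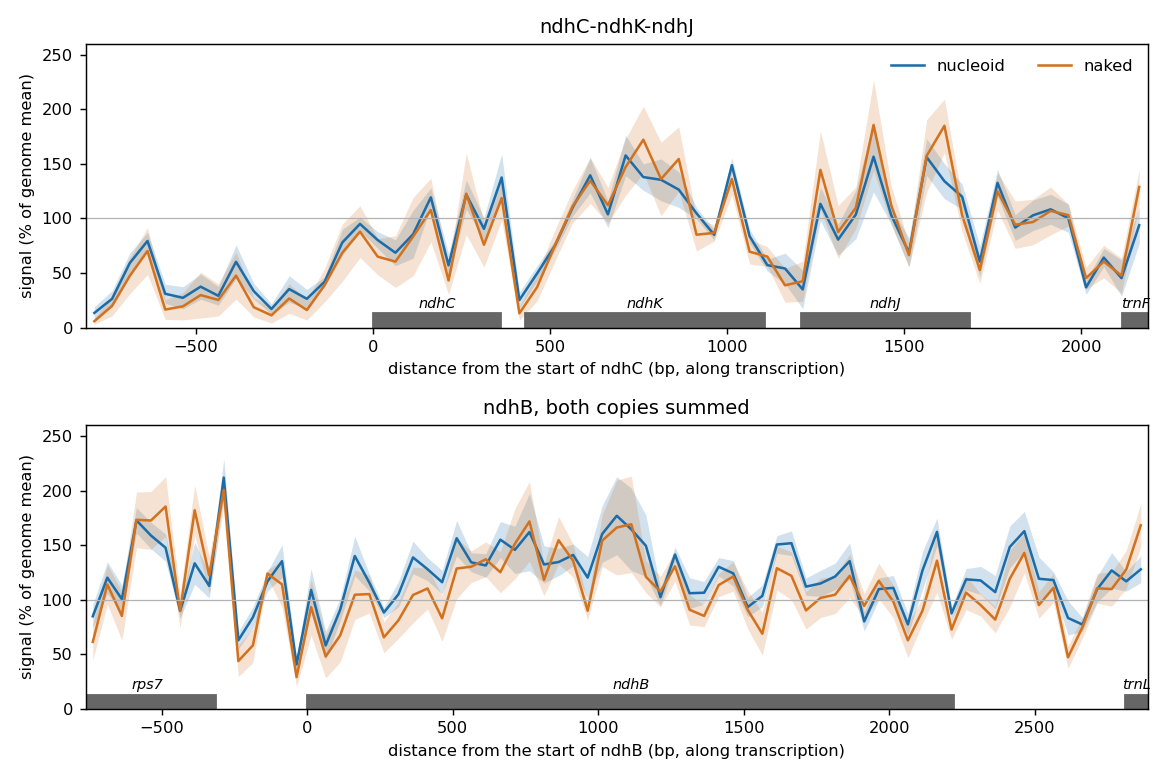
Mean signal in 50 bp bins as a percent of the genome mean (vertical axis) against the distance in bp from the start of ndhC (upper panel) and of ndhB with both copies summed (lower panel), for 10 nucleoid and 11 naked libraries, with shading for ± 1 SD. Grey boxes mark the genes; the spacers of the operon are low in both fractions, and the nucleoid line lies above the naked line over the first 600 bp of ndhB.

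The profiles by distance show that both fractions shared most of their peaks and troughs. Single positions showed the same. The 10% of positions with the most signal held 48.2% of the signal of ndhC, 48.9% of ndhK, 44.9% of ndhJ and 45.0% of ndhB in the nucleoid, against 51.1%, 53.1%, 47.4% and 49.9% in naked DNA. Of those positions, 27 of 36 in ndhC, 56 of 68 in ndhK, 39 of 48 in ndhJ and 181 of 222 in ndhB were the same in both fractions. Peaks and troughs that naked DNA shares are not read here as accessibility of the nucleoid, and their cause was not tested.

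The position with the most signal in ndhK was plastid position 49574 (chromosome Pltd, TAIR10) in both fractions, at 1832% ± 664 of the genome mean in the nucleoid (SD, n = 10) and 1731% ± 714 in naked DNA (SD, n = 11). In ndhJ it was position 48718 in both, at 1287% ± 328 in the nucleoid and 1484% ± 539 in naked DNA. In ndhC it was position 50003 in the nucleoid and 50220 in naked DNA. Across the positions of a gene, the mean profiles of the fractions had a Pearson r of 0.93 to 0.97, where positions are not independent replicates. Fewer positions were without any count in the nucleoid libraries, which held more counts in sum, at 36 of 363 in ndhC, 55 of 678 in ndhK, 37 of 477 in ndhJ and 79 of 2224 in ndhB, against 42, 92, 47 and 141 in naked DNA.

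In windows of 200 bp along the genome, 176 of 772 passed (22.8%), 90 of them higher (11.7%) and 86 lower (11.1%) in the nucleoid. Over the operon 1 of 9 windows passed, the window Pltd 49801 to 50000, which holds the start of ndhK and the spacer before it. Its signal was 68.8% ± 4.62 in the nucleoid (SD, n = 10) and 57.5% ± 9.61 in naked DNA (SD, n = 11), and it differed by 0.27 on the log2 scale (SE 0.088, adjusted p = 0.0353 by limma). All 10 nucleoid libraries stood above the naked median of 60.2%. It did not pass without naked replicates 9, 10 and 11 (0.15, limma adjusted p = 0.0913). The call was lost in 9 of the 21 fits with 1 library left out (nucleoid replicates 1, 2, 6, 7, 8 and 9, naked replicates 7, 10 and 11), with log2 fold changes of 0.22 to 0.30 over the 21. The 3 windows that lie mainly in ndhJ had log2 fold changes of -0.12, -0.12 and -0.097 and did not pass (limma adjusted p = 0.0927, 0.0801 and 0.515).

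Over ndhB 5 of 12 windows of the first copy and 5 of 12 of the second were higher in the nucleoid, and 0 were lower. Of the 24 windows 23 had a positive log2 fold change. The median was 0.19 in the first copy and 0.20 in the second, beside 0.16 over all 772 windows of the genome. The positive sign alone therefore does not set ndhB apart. The windows of the copies are not independent, because reads that match both repeats cannot be given to one of them, and the first copy held 49.2% to 50.4% of the ndhB counts in every library. In the first 600 bp of the gene, Pltd 96601 to 96800 had 123% ± 12.1 in the nucleoid and 100.1% ± 18.9 in naked DNA (log2 fold change 0.32, limma adjusted p = 0.0322). Nearer to the start, Pltd 96801 to 97000 had 119% ± 10.8 in the nucleoid and 94.4% ± 22.1 in naked DNA (0.37, limma adjusted p = 0.0310).

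The second copy gave the largest window difference of the gene, also within its first 600 bp. Pltd 141801 to 142000 had 139% ± 11.2 in the nucleoid and 107% ± 25.02 in naked DNA (0.41, limma adjusted p = 0.0227), and Pltd 141601 to 141800 had 98.6% ± 7.20 in the nucleoid and 77.9% ± 12.3 in naked DNA (0.35, limma adjusted p = 0.0133). The windows that hold the start itself together with the spacer before it did not pass, at 0.30 (limma adjusted p = 0.114) for Pltd 97001 to 97200 and 0.37 (limma adjusted p = 0.101) for Pltd 141401 to 141600. At the end of the gene, Pltd 94801 to 95000 had 107% ± 9.07 in the nucleoid and 86.2% ± 11.9 in naked DNA (0.32, limma adjusted p = 0.0133). The windows that also passed were Pltd 95401 to 95600 and 95801 to 96000 in the first copy, and 142801 to 143000, 143001 to 143200 and 143601 to 143800 in the second, with log2 fold changes of 0.17 to 0.34.

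The middle of ndhB, which holds the window with the highest signal, showed no difference that passed. Pltd 96001 to 96200 had 158% ± 28.3 in the nucleoid and 148% ± 27.1 in naked DNA (0.086, limma adjusted p = 0.489). A high signal did not go with a lost call everywhere. Pltd 95401 to 95600 passed at 146% ± 8.73 in the nucleoid and 124% ± 20.2 in naked DNA (0.25, limma adjusted p = 0.0385). Of the 11 windows that passed over the members, 4 still passed without naked replicates 9, 10 and 11, 2 under the median scaling, and 0 with depth as a covariate or in the libraries over 600000 counts. Calls also fell over all 772 windows, from 22.8% to 7.12%, 17.9%, 0.389% and 0.13% under these settings in turn. The loss was thus not particular to the members. All 11 kept a positive log2 fold change under these 4 settings, at 0.020 or above. They were picked for passing with a positive sign in the same libraries, so the kept sign is no further support. With 1 library left out, the windows starting at Pltd 94801, 141601, 141801, 143001 and 143601 passed in all 21 fits. The call was lost in 1 fit for the window from 142801 (without nucleoid replicate 6), in 4 for those from 95801 (nucleoid replicates 6, 7, 8 and 9) and 96601 (nucleoid replicates 5, 6, 8 and 9), in 5 for that from 96801 (nucleoid replicates 2, 5, 6 and 8 and naked replicate 10) and in 14 for that from 95401.

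Each gene of at least 300 bp was also cut at its midpoint, and the log2 ratio of the signal in the part with the lower coordinates to that in the part with the higher coordinates was tested over 61 genes. None of the 61 passed with limma (0 called, which is 0%, with 17 at an unadjusted p under 0.05). By the known order of transcription, the operon and the first copy of ndhB run toward lower coordinates, and the second copy of ndhB, which runs the other way, was mirrored before it was added, so the ratio sets the end part of the gene over its start part. It was 0.39 ± 0.12 in the nucleoid and 0.42 ± 0.25 in naked DNA for ndhC, 0.085 ± 0.046 and 0.058 ± 0.17 for ndhK, and 0.19 ± 0.10 and 0.065 ± 0.17 for ndhJ, each given as nucleoid and then naked (SD, n = 10 and 11). On average, signal was higher toward the end in all 3 genes of the operon.

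ndhB was tilted the other way, with a ratio of -0.11 ± 0.027 in the nucleoid (SD, n = 10) and -0.13 ± 0.065 in naked DNA (SD, n = 11), so that its start part had more signal than its end part in every library. The largest difference between fractions was that of ndhJ, at 0.12 (SE 0.061, limma adjusted p = 0.184). In ndhJ the start part averaged 104% ± 6.73 in the nucleoid and 121% ± 13.6 in naked DNA, and the end part 118% ± 5.35 in the nucleoid and 127% ± 10.5 in naked DNA.

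**Figure D4:**
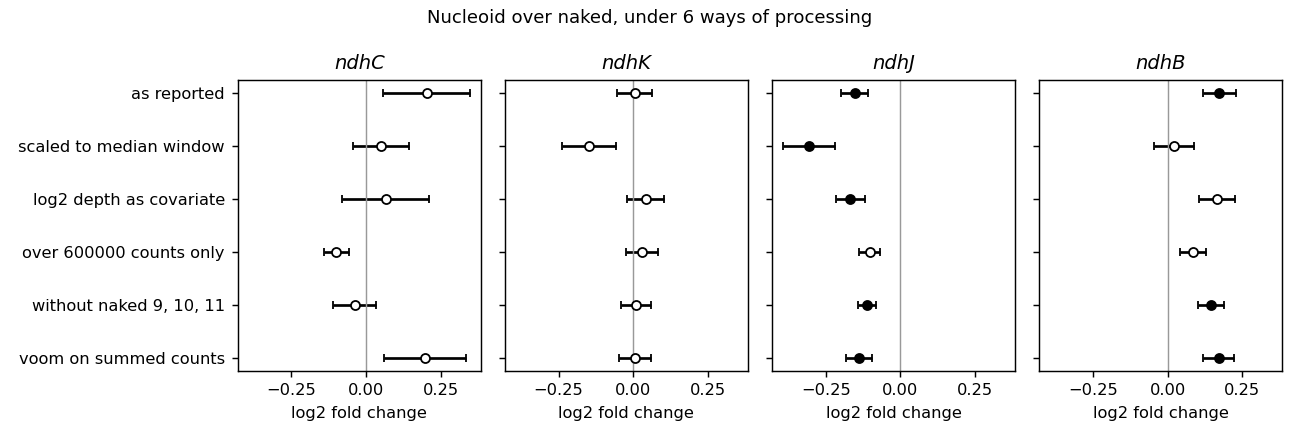
Log2 fold change, nucleoid over naked (horizontal axis), of ndhC, ndhK, ndhJ and ndhB under 6 ways of processing (rows), with bars for ± 1 SE from limma and filled points where the adjusted p was under 0.05. ndhJ kept a negative value throughout, ndhB a positive one that fell to 0.021 under the median scaling, ndhC turned negative in 2 settings, and ndhK was negative under the median scaling.

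In the plot of settings ndhJ and ndhB kept their signs under all 6, and ndhC and ndhK did not. With every single library left out in turn, ndhJ ranged from -0.17 to -0.12 and ndhB from 0.14 to 0.20, and both passed in each of the 21 fits. ndhC ranged from 0.11 to 0.25 in these fits and never passed.

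The 7 NDH genes of the small single copy region, ndhF, ndhD, ndhE, ndhG, ndhI, ndhA and ndhH, encode further subunits of the same complex. None of the 7 passed (0 higher, 0 lower), beside 33.9% of all 112 genes. All 7 had a positive log2 fold change, as did 66 of the 112 genes. The median of the 7 was 0.46, with a range of 0.28 to 0.69, and that of all genes was 0.10. Without naked replicates 9, 10 and 11 their median was 0.061 and the range -0.0020 to 0.12. The members had a median of 0.089 with all libraries and -0.015 without those 3, where the median of all genes was -0.012 and 23.2% of all genes passed. ndhB was again higher and ndhJ again lower without them.

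**Figure D5:**
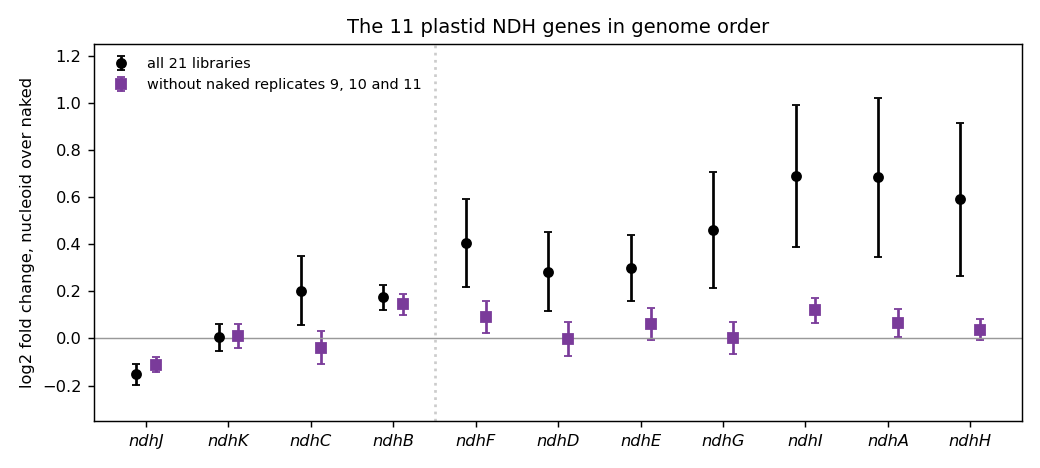
Log2 fold change, nucleoid over naked (vertical axis), of the 11 plastid NDH genes in genome order, with bars for ± 1 SE from limma, for all 21 libraries (black circles) and without naked replicates 9, 10 and 11 (purple squares). The dotted line separates ndhJ, ndhK, ndhC and ndhB from the 7 genes of the small single copy region, whose values lie between 0.28 and 0.69 with all libraries and between -0.0020 and 0.12 without the 3.

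In the plot of all NDH genes, ndhJ and ndhB changed little when the 3 naked libraries were left out, whereas ndhC had -0.038 without them, against 0.20 with them. The difference between the members and the small single copy genes was not tested.

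Genes of the complexes that the NDH pathway connects to, the cytochrome b6f complex and photosystem I, were counted as well. Of 11 such genes 1 was higher and 0 were lower, beside 9.82% higher and 24.1% lower of all 112 genes. Their median log2 fold change was 0.15, against 0.10 for all genes. Under the median scaling it was -0.0051, against -0.051 for all genes, and none of the 11 passed, beside 27.7% of all genes. The median of the 11 was 0.0067 without naked replicates 9, 10 and 11. The one that passed was petB, which encodes cytochrome b6, with 106% ± 3.19 in the nucleoid (SD, n = 10) and 95.9% ± 6.83 in naked DNA (SD, n = 11), and a log2 fold change of 0.15 (limma adjusted p = 0.0136). Its call remained without the 3 naked libraries (0.12, limma adjusted p = 0.0294), and 0 of the 11 genes passed with depth as a covariate or in the libraries over 600000 counts. In these 2 settings 17.9% and 13.4% of all genes passed.

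Several transfer RNA genes around the members were lower in the nucleoid, which was not particular to this neighbourhood. Of all 112 genes 11 were higher (9.82%) and 27 lower (24.1%), and only 7 of the lower ones were among the 78 protein-coding genes. Of the 6 genes nearest the operon 0 were higher and 2 were lower. trnF, a transfer RNA gene for phenylalanine just downstream of ndhJ, had 79.7% ± 16.3 in the nucleoid and 107% ± 15.9 in naked DNA (log2 fold change -0.44, limma adjusted p = 0.00519). A transfer RNA gene listed without a symbol, ArthCt100, had 73.4% ± 6.92 in the nucleoid and 98.8% ± 14.3 in naked DNA (-0.42, limma adjusted p = 0.000572). trnV upstream of ndhC did not pass (0.20, limma adjusted p = 0.129), nor did atpE, a subunit gene of the ATP synthase (-0.085, limma adjusted p = 0.164). Without naked replicates 9, 10 and 11 both transfer RNA genes remained lower, at -0.43 for trnF and -0.41 for ArthCt100, while trnV had 0.022 and atpE had -0.050.

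Of the 6 genes nearest ndhB 1 was higher and 3 were lower, beside 9.82% and 24.1% of all genes. ycf2, the longest reading frame of the repeat, had 118% ± 5.28 in the nucleoid and 101% ± 15.3 in naked DNA (0.24, limma adjusted p = 0.0215). trnL, just downstream of ndhB, had 121% ± 12.04 in the nucleoid and 157% ± 19.9 in naked DNA (-0.37, limma adjusted p = 0.000572), although the spacer between it and ndhB had 117% ± 11.2 in the nucleoid and 98.2% ± 9.20 in naked DNA. The others that were lower were trnI (-0.29, limma adjusted p = 0.0156) and the 16S ribosomal RNA gene rrn16S (-0.50, limma adjusted p = 0.0198). Without naked replicates 9, 10 and 11 the calls of ycf2 (0.12, limma adjusted p = 0.0343) and trnL (-0.29, limma adjusted p = 0.00123) remained, and those of trnI (-0.17, limma adjusted p = 0.0784) and rrn16S (-0.29, limma adjusted p = 0.0935) were lost. rps7, the ribosomal protein gene upstream of ndhB, had 126% ± 6.75 in the nucleoid and 135% ± 15.1 in naked DNA and did not pass (-0.099, limma adjusted p = 0.142, and -0.039 without the 3 naked libraries). The spacer between rps7 and ndhB had 109% ± 6.28 in the nucleoid and 95.5% ± 7.86 in naked DNA, a log2 difference of 0.20, or 0.17 without the 3 naked libraries, and that between ndhB and trnL had 0.24, or 0.22 without them.

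The genes whose log2 signal moved most like that of the operon over the 21 libraries, after the mean of each fraction was subtracted, were rps4 (r = 0.82), rpl20 (r = 0.80) and atpI (r = 0.79). For ndhB they were a transfer RNA gene for arginine, trnR with locus ArthCt093 (r = 0.74), rpl20 (r = 0.71) and ycf2 (r = 0.71). The least alike was trnL (locus ArthCt126) for the operon, at r = -0.64, and rps14 for ndhB, at r = -0.87. The points share libraries and their scaling, so these values describe likeness across the 21 libraries and have no p.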

How the data were processed

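ptATAC-seq ends were measured in nucleoid and naked plastid DNA of *Arabidopsis* leaf chloroplasts. The authors deposited 1 table of whole-number counts per plastid position and library, not scaled between libraries, in TAIR10 coordinates per the file headers. The submitters' processing notes name Trim Galore 0.4.1, Bowtie2 2.2.8.9 and bedtools 2.25.0. Their settings, the removal of duplicates, any shift of ends for Tn5 and the handling of repeat reads are not given in the sources used here. Counts at adjacent positions were close to uncorrelated, so they were read as ends and not as coverage. PCR duplicates, if kept, make counts less precise than their number.

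Libraries were grouped by the fraction in their labels, and 0 columns were unmatched. Gene boundaries and names came from a RefSeq table of assembly TAIR10.1, a different name from the build of the counts, so its coordinates are not printed; 112 genes were used, 15 of them with 2 copies. The repeat axis found in the counts (r = 0.931 between mirrored positions, 0.244 for the next of 1301 tried) paired the copies. The table gives neither strand, exons nor sequence: the start and end of the members follow their known order of transcription, the intron of ndhB was not separated, and no sequence is shown.

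Signal was the mean count per position over the library mean, times 100. log2(signal + 1) was fitted with limma 3.58.1 in R 4.3.3, without covariates, with Benjamini-Hochberg adjustment over 112 genes, 224 flanks, 61 ratios or 772 windows and a threshold of 0.05. A minimum mean scaled count of 10 removed 0 features. The fit was run on simulated data in which all libraries had the same spread, so that run does not cover the uneven naked libraries. The members, the lists, the neighbours and the named genes (those past the threshold in a list, and the 3 most alike in signal) were chosen with earlier results of these data known. Alternatives were other pseudocounts, scaling to the median window, depth as a covariate, deep libraries, subsets of libraries, a replicate block, other feature sizes and, added after seeing the data, voom.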

Additional observations from a re-analysis of the deposited data

Results flagged for a closer look

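For 12 quantities of the members (signals, ratios within genes and flanks), the 10 nucleoid libraries were searched for one that stood far from the others. In all, 3 were found. Chance alone gives about 1 in 20 for a single quantity. The quantities share libraries and scaling, so the 3 cannot be weighed against that rate. The 11 naked libraries were too many for this test. The signal of ndhC in nucleoid replicate 11 was 75.4% of the genome mean, below the 89.3% to 103% of the other nucleoid libraries. The signal of ndhB in nucleoid replicate 4 was 109%, below the 121% to 134% of the others. The flank downstream of ndhJ in nucleoid replicate 11 had 78.7%, below the 98.5% to 112% of the others. Nucleoid replicate 11 had the fewest counts of its fraction, 202725, and replicate 4 had 1462471.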

How the results depend on the processing

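The calls for ndhJ and ndhB held with pseudocounts of 0.1 and 5, with voom (chosen after seeing the data), with 50 bp trimmed from each gene end and with any 1 library left out. The number of genes that passed was 38 as reported, 20 with depth as a covariate and 15 in the libraries over 600000 counts. It was 30 to 43 with 1 library left out. With trimmed ends, 16 of the 72 genes left passed (22.2%, against 33.9%). That set lacks the shortest genes, so these shares are not of the same genes. Median scaling gave 31 genes, 1 higher and 30 lower, against 11 and 27 as reported, 40 flanks, 10 higher and 30 lower, against 18 and 26, and 138 windows, 33 higher and 105 lower, against 90 and 86. Flanks numbered 44 as reported, 7 with depth, 4 in deep libraries, 10 without naked replicates 9, 10 and 11, and 18 to 97 with 1 library left out. Windows numbered 176 as reported, 3 with depth, 1 in deep libraries, 55 without those 3, 386 of 1544 at 100 bp and 87 of 308 at 500 bp (25% and 28.2%, against 22.8%), and 85 to 348 with 1 left out. The flank and window counts were lowest without nucleoid replicate 6 and highest without naked replicate 1. For ratios within genes, 0 passed as reported, 1 with depth, 2 when genes were cut into 3 parts, and 0 to 6 with 1 library left out.

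Same-numbered libraries deviated together in 9 of 10 pairs (r of 0.156 to 0.769) and not in number 3 (r of -0.0175), only number 11 correlated best with its own number, and the numbers were not taken as pairs, since not every pair had r over 0.1. A fit with a replicate block left out naked replicate 10, because nucleoid replicate 10 was counted as 1 with replicate 9. In that fit 33 genes, 2 ratios, 88 flanks (60 higher and 28 lower, against 18 and 26 as reported) and 303 windows (185 higher and 118 lower, against 90 and 86) passed, and ndhJ (-0.15) and ndhB (0.18) both had a limma adjusted p of 0.0488.

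Signs turned for ndhC (-0.0994 in deep libraries, -0.0384 without naked replicates 9, 10 and 11), for ndhK (-0.148 with median scaling, -0.0051 with trimmed ends, -0.0216 to 0.026 with 1 library left out), for the ratio in ndhC (0.0875 with depth, 0.1111 in deep libraries, 0.0766 without the 3 naked libraries, -0.0513 to 0.0351 with 1 left out), in ndhB (-0.0004 in deep libraries, -0.0339 with 3 parts) and in ndhK (-0.0023 to 0.0644 with 1 left out), and for the flanks of ndhC (-0.0028 in deep libraries) and ndhJ (-0.0619 with median scaling, -0.0232 with depth). The cause was not tested. Depth and fraction partly coincide, as 8 of 10 nucleoid and 5 of 11 naked libraries were deep. The planned comparison of exons with the intron and the planned count models were not run.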
